A study of Mus musculus with 20 samples.

Results

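The S100 calcium-binding proteins were followed at the RNA level across 5 macrophage populations of the mouse. The members are the 8 genes S100a1, S100a4, S100a6, S100a8, S100a9, S100a10, S100a11 and S100a13, chosen by gene symbol from the 24421 genes in the count files. Bulk RNA-seq libraries had been made from C57BL/6JRj mice, with 4 libraries for each of peritoneal macrophages, choroid plexus macrophages, MHC II-high dura macrophages, MHC II-low dura macrophages and microglia, 20 in all. The labels give no allele, transgene, treatment or age for any of the 5 groups, and no isolation protocol. The MHC II-low dura libraries are called intermediate in their titles and low in their cell type label. The labels do not say whether replicates came from separate animals, so p-values measure the spread between these libraries, which may be technical. All 8 members had counts in at least 1 library, and 7 of them passed the low-count filter of the test; S100a9 did not.

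S100 proteins are small proteins with a pair of EF-hand loops that bind calcium, and most work as dimers. Binding of calcium exposes a surface that grips partner proteins, among them annexins, cytoskeletal proteins and enzymes, and some members are also released from cells as alarm signals. In myeloid cells S100a8 and S100a9 form calprotectin, a metal-binding complex that is a major cytosolic product of neutrophils and inflammatory monocytes. S100a10 is the exception that does not need calcium, and it holds annexin A2 in a tetramer beneath the plasma membrane.

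In the mm10 build all 8 genes lie on chromosome 3, within 3053610 bases. S100a1 (chr3:90511034-90514392, minus strand) and S100a13 (chr3:90514435-90524581, plus strand) run away from each other with 42 bases between their GENCODE starts, and 104 bases between their RefSeq starts. S100a4 (chr3:90603771-90606045, plus), S100a6 (chr3:90612882-90624181, plus), S100a8 (chr3:90668978-90670035, plus) and S100a9 (chr3:90692632-90695721, minus) follow. S100a11 (chr3:93520488-93526287, plus) and S100a10 (chr3:93555080-93564643, plus) form a second pair, 2824766 bases beyond S100a9. Their longest annotated transcripts are 498 to 783 bases long. In the annotation 51.7% of the exon length of S100a4 is shared with the predicted gene Gm42674, which was not analysed here, and reads over that stretch could come from either gene.

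Sequence just before the starts is shown for the members on which the results below turn, from RefSeq's GRCm38.p6 promoters, plus strand. The first 3 stretches are the 150 bases before the earlier of the RefSeq and GENCODE starts of S100a4, S100a6 and S100a11, and the last is the stretch between the GENCODE starts of S100a1 and S100a13. Capitals mark a TATA box (TATAAA), an AP-1 site (TGANTCA) or a PU.1 core (GAGGAA).
S100a4, chr3:90603620-90603769: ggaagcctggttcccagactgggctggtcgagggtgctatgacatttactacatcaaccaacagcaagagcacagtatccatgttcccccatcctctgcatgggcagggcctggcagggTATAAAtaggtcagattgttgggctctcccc
S100a6, chr3:90612732-90612881: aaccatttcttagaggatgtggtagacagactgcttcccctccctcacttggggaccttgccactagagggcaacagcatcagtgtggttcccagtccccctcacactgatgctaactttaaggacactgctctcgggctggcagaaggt
S100a11, chr3:93520338-93520487: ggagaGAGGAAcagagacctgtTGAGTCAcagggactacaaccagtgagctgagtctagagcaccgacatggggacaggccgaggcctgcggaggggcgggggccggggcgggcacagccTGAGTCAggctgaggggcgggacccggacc
S100a1 to S100a13, chr3:90514393-90514434: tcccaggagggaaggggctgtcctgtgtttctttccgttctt
The motifs were searched on both strands of the 250 bases before the start in the 7 members with a RefSeq promoter entry, that is all but S100a10; bases matched by more than one motif count for each. The TATA box was found in 2 of them, S100a4 and S100a8, against 13% of 27025 mouse promoters. The AP-1 site was found in 1, S100a11, against 6.87%, and the PU.1 core in 2, S100a8 and S100a11, against 23.1%. The C/EBP motif TTGCNNAA was found in S100a9 alone, against 9.55%. A match describes the letters of this window and shows no binding.

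The libraries held 13383274 to 32611875 gene counts. The choroid plexus and microglia libraries were the shallower ones, at 13383274 to 17156227. Levels below are counts per 1000000 gene counts (CPM) after TMM scaling, and 3 counts, the limit that a count of 0 allows, came to 0.0964 to 0.222 CPM in a library. Peritoneal markers summed to 30086 to 53163 CPM in peritoneal libraries and at most 2486 elsewhere, and microglia markers to 35182 to 46681 CPM in microglia and at most 9746 elsewhere. MHC class II genes summed to 53699 to 60223 CPM in MHC II-high and 2286 to 2513 in MHC II-low dura libraries. Markers of choroid plexus epithelium (12 genes) reached 21272 CPM in microglia replicate 3, against 70.3 to 736 in the other 3 microglia libraries, 4141 to 7812 in choroid plexus, 14.8 to 38.5 in dura and at most 0.448 in peritoneal libraries. Fibroblast markers (8 genes) reached 1202 CPM in choroid plexus replicate 4 and 349 to 498 in the other choroid plexus libraries. They summed to 172 to 350 CPM in MHC II-high dura and 154 to 218 in MHC II-low dura libraries. Microglia had 11.8 to 151 CPM of them and peritoneal libraries at most 1.75. The part of fibroblast RNA in the levels of the members was not tested in any population. In bulk libraries fewer cells that express a gene and less RNA per cell cannot be told apart.

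Of the 8 members, 7 were highest in peritoneal macrophages, and S100a9 was counted only in dura libraries. Per kilobase of longest transcript, S100a10 had the highest mean level in peritoneal macrophages, at 331 ± 76.1 CPM per kb, followed by S100a1 at 151 ± 30.6 and S100a11 at 131 ± 10.8 (SD, n = 4 each). S100a4 (90.5), S100a13 (76.8) and S100a6 (76.3) were close to one another on that scale, and S100a8 lay far below at 3.38 ± 0.26. In no other population did S100a10 lead. In MHC II-high dura S100a11 (58.2) and S100a1 (50.5) had higher means than S100a10 (38.9). S100a1 had the highest mean in MHC II-low dura (47.6) and in choroid plexus (31.7), where S100a10 was at 21.2 and 9.18. In microglia S100a1 (13.4) and S100a13 (9.59) led, ahead of S100a11 (5.59) and S100a10 (3.81), and S100a6 (0.537) and S100a4 (0.154) came after them. The leading S100a1 mean in microglia rested on replicate 3, as given below.

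**Figure D1:**
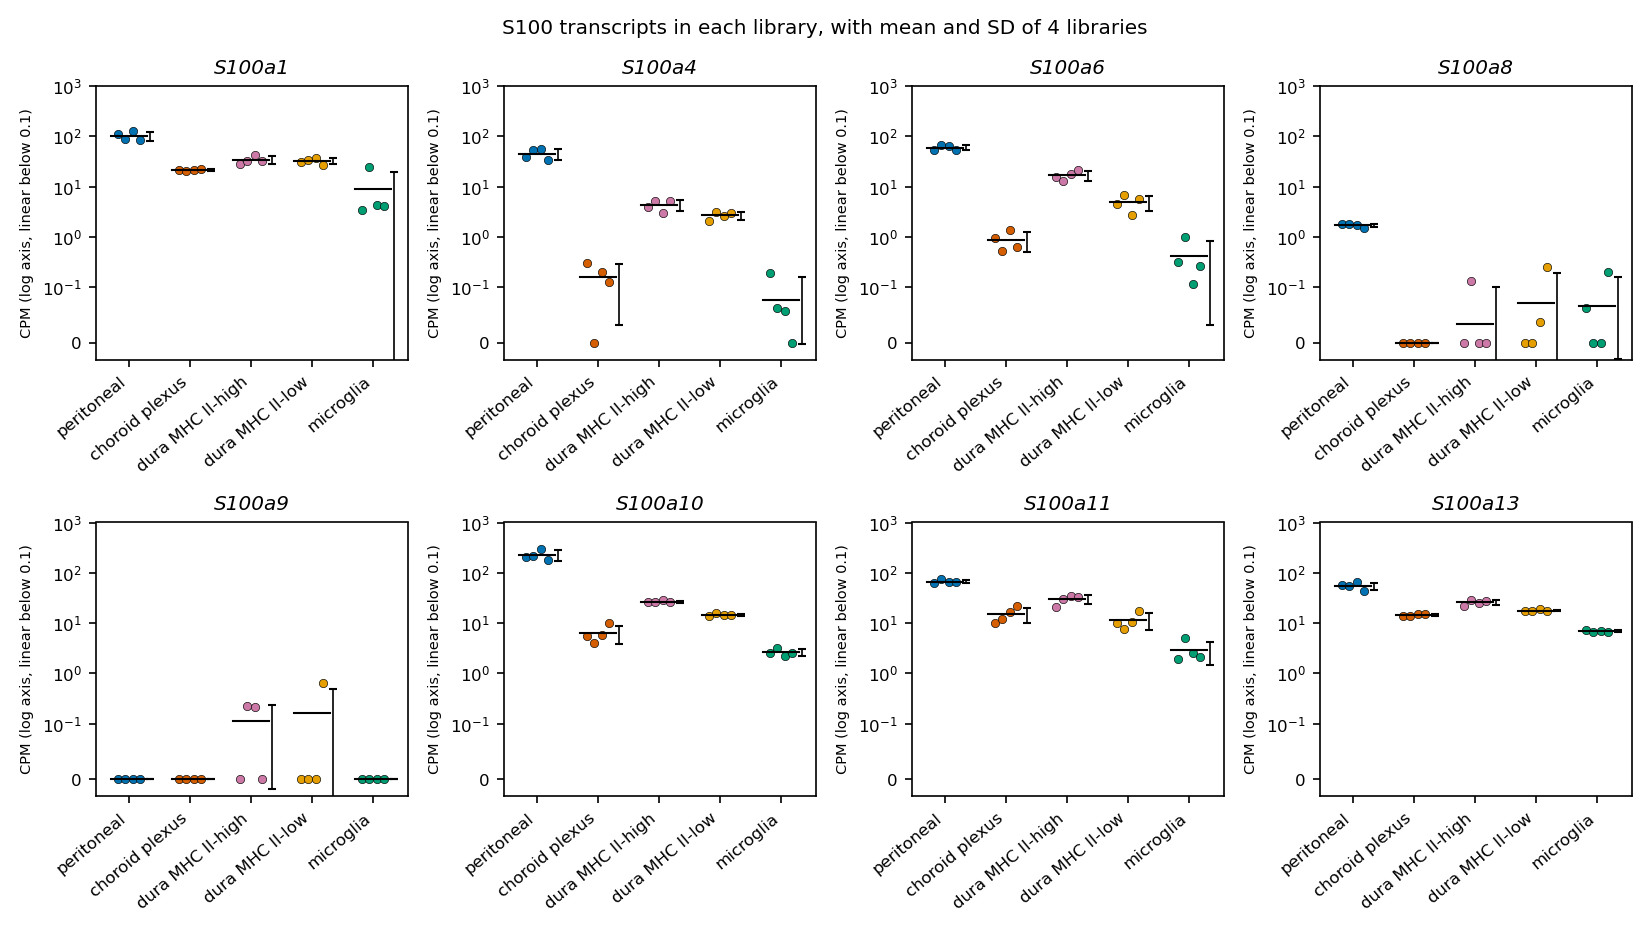
CPM of the 8 S100 genes (y axis, logarithmic above 0.1 and linear below) in each library of the 5 populations (x axis); points are libraries, horizontal lines are means and the bar beside them is 1 SD, n = 4. Peritoneal libraries lie above all others for 7 genes, and S100a9 has counts in 3 dura libraries only.

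S100a10, the light chain of the annexin A2 tetramer, separated all 5 populations. It was at 210, 215, 302 and 181 CPM in the 4 peritoneal libraries. The choroid plexus libraries had 5.39, 4.09, 5.82 and 9.85 CPM. In dura it was at 25.6, 26.3, 28.2 and 26.5 CPM in MHC II-high and 13.9, 15.7, 14.3 and 14.2 CPM in MHC II-low macrophages, and microglia had 2.57, 3.15, 2.20 and 2.51 CPM. The order was therefore peritoneal, MHC II-high dura, MHC II-low dura, choroid plexus, microglia, with no overlap between any 2 populations. On the log2 scale it was higher in peritoneal macrophages by 6.44 ± 0.23 than in microglia (edgeR adjusted p = 3.36e-15), by 5.17 ± 0.21 than in choroid plexus, by 3.97 ± 0.20 than in MHC II-low and by 3.09 ± 0.19 than in MHC II-high dura. A gene was called where its edgeR adjusted p was under 0.05 and its difference at least 2-fold, and S100a10 was called in 9 of 10 comparisons. The exception was MHC II-high over MHC II-low dura, where it rose by 0.88 ± 0.18 (adjusted p = 0.00284), short of 2-fold. Its highest choroid plexus value was that of replicate 4, the library with most fibroblast marker RNA; without it the other 3 averaged 5.10 ± 0.904 CPM, and the rise over microglia of 1.27 became 0.97, short of 2-fold. The part of fibroblast RNA in this result was not tested.

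Its partner annexin A2 and the giant scaffold protein Ahnak, which binds the S100a10 and annexin A2 complex, were likewise highest in peritoneal macrophages and lowest in microglia. Anxa2 averaged 412 ± 75.5 CPM in peritoneal, 40.9 ± 17.4 in choroid plexus, 71.3 ± 14 in MHC II-high dura, 33.8 ± 4.70 in MHC II-low dura libraries and 6.98 ± 2.84 in microglia. Ahnak averaged 753 ± 176, 35.7 ± 9.12, 230 ± 22.1, 130 ± 30.7 and 6.87 ± 2.31 CPM in the same order. Both were called higher in peritoneal macrophages than in each other population; over microglia Anxa2 rose by 5.88 ± 0.32 and Ahnak by 6.77 ± 0.30. In MHC II-high over MHC II-low dura Anxa2 was called (1.08 ± 0.26, edgeR adjusted p = 0.0107), and Ahnak stayed short of 2-fold (0.83 ± 0.23, adjusted p = 0.0239). The ratio of S100a10 to Anxa2, a pair chosen after values were seen, varied between these libraries. The log2 ratio of S100a10 to Anxa2 counts was -0.87 ± 0.19 in peritoneal, -2.69 ± 0.08 in choroid plexus, -1.40 ± 0.31 in MHC II-high dura, -1.21 ± 0.16 in MHC II-low dura libraries and -1.34 ± 0.47 in microglia. The choroid plexus libraries thus had the least S100a10 for their Anxa2 and overlapped no other population. Each such difference gave p = 0.0286 in a two-sided exact permutation test, the smallest that 4 against 4 libraries allow, and 0.0571 after adjustment over the 40 ratio comparisons made, so none passed.

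**Figure D2:**
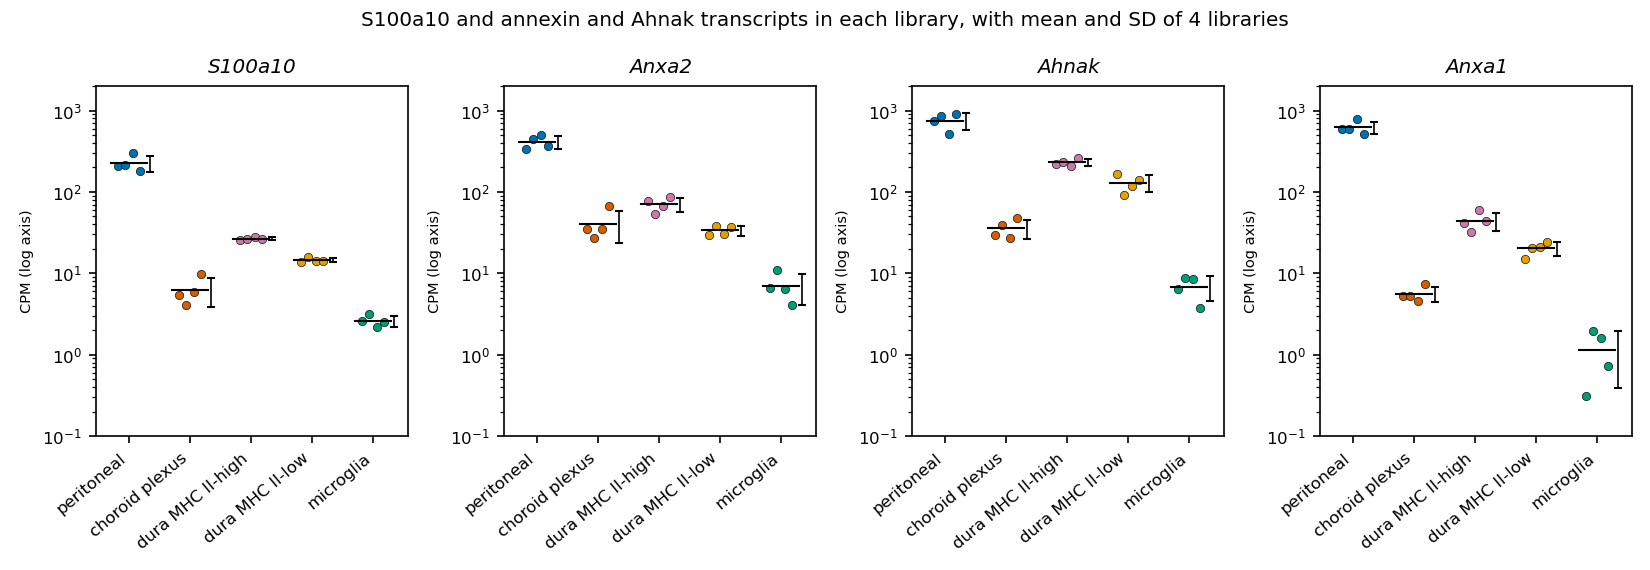
CPM (y axis, logarithmic) of S100a10, Anxa2, Ahnak and Anxa1 in each library of the 5 populations (x axis); points are libraries, lines are means and bars 1 SD, n = 4. Peritoneal libraries are highest and microglia lowest for all 4 genes, and Anxa2 in choroid plexus lies between 27.2 and 66.3 CPM where S100a10 lies between 4.09 and 9.85.

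S100a11, which binds annexin A1 and takes part in membrane repair and cell growth control, did not follow S100a10 in choroid plexus. Peritoneal libraries had 62.0, 74.9, 65.8 and 65.2 CPM of S100a11 and choroid plexus libraries 9.98, 12.1, 16.4 and 21.3 CPM. It was at 21.1, 30.1, 34.2 and 33.6 CPM in MHC II-high and 10.1, 7.65, 10.6 and 17.5 CPM in MHC II-low dura, and at 1.88, 4.94, 2.49 and 2.11 CPM in microglia. Choroid plexus overlapped both dura populations here. In choroid plexus over MHC II-low dura the difference was 0.39 ± 0.28 (edgeR adjusted p = 0.32), and over MHC II-high dura -0.99 ± 0.28 (adjusted p = 0.0137), just short of 2-fold. The overlap with MHC II-high dura lay between choroid plexus replicate 4, at 21.3 CPM, and replicate 1 of MHC II-high dura, at 21.1 CPM. Choroid plexus replicate 4 was the library with most fibroblast marker RNA. Without this library the other 3 averaged 12.8 ± 3.27 CPM and the difference was called, at -1.21 (adjusted p = 0.00774). The difference also passed 2-fold when choroid plexus replicate 3 was left out, and when replicate 1 of MHC II-high dura was. The part of fibroblast RNA was not tested. S100a11 was called higher in choroid plexus than in microglia, by 2.39 ± 0.31 (adjusted p = 3.75e-06). It was also called higher in MHC II-high than in MHC II-low dura (1.38 ± 0.28, adjusted p = 0.00268). The log2 ratio of S100a10 to S100a11 counts was 1.74 ± 0.33 in peritoneal, -1.26 ± 0.32 in choroid plexus, -0.13 ± 0.28 in MHC II-high dura, 0.41 ± 0.55 in MHC II-low dura libraries and -0.03 ± 0.49 in microglia. Peritoneal and choroid plexus libraries each overlapped no other population, with the same exact p of 0.0286 and adjusted p of 0.0571.

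Annexin A1, a phospholipid-binding protein known for restraining inflammation, differed more than S100a11 did. Anxa1 averaged 622 ± 110 CPM in peritoneal, 5.59 ± 1.18 in choroid plexus, 44.5 ± 11.2 in MHC II-high dura, 20.2 ± 3.75 in MHC II-low dura libraries and 1.16 ± 0.771 in microglia. In peritoneal macrophages over choroid plexus Anxa1 rose by 6.79 ± 0.32 where S100a11 rose by 2.16 ± 0.28. The log2 ratio of S100a11 to Anxa1 counts was accordingly -3.20 ± 0.27 in peritoneal libraries and 1.38 ± 0.39 in choroid plexus. Anxa5, which marks exposed phosphatidylserine, went the other way: it averaged 97.9 ± 19.5 CPM in peritoneal macrophages, below choroid plexus (396 ± 9.61) and both dura populations (602 ± 32.4 in MHC II-high, 460 ± 8.35 in MHC II-low), and above microglia (44.0 ± 9.36). Of 12 annexin genes 9 were tested. Of these, 8 were called higher and 0 lower in peritoneal macrophages over microglia (median 1.54, against -0.11 for all 13960 genes tested). Of all genes tested 18.9% were called higher and 25.7% lower there. Choroid plexus had 1 called lower than each dura population, Anxa1, and 0 higher. Of all genes tested 4.00% were called lower and 5.87% higher than in MHC II-high dura, and 4.18% and 8.63% than in MHC II-low dura.

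S100a4 and S100a6, which bind non-muscle myosin and other cytoskeletal or scaffold proteins and are known from motile cells, gave the widest spread. S100a4 was at 38.0, 52.5, 56.4 and 33.5 CPM in peritoneal macrophages. In the choroid plexus libraries it had 4, 0, 3 and 2 counts and in microglia 3, 1, 1 and 0 counts, so that both lay at the limit of detection and could not be ordered. Dura macrophages had 3.91, 5.17, 3.0 and 5.19 CPM in MHC II-high and 2.04, 3.05, 2.56 and 2.96 CPM in MHC II-low libraries, which overlapped. Peritoneal macrophages were higher than microglia by 9.09 ± 0.47 (edgeR adjusted p = 7.99e-13) and than choroid plexus by 8.15 ± 0.44, fits that rest on 5 and 9 counts in the lower population; without microglia replicate 1 the difference from microglia was 9.89. Choroid plexus was lower than MHC II-high dura by a log2 change of -4.77 ± 0.44 (adjusted p = 2.16e-07) and than MHC II-low dura by -4.07 ± 0.44. Between the dura populations S100a4 was not called (0.70 ± 0.29, adjusted p = 0.141).

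S100a6 was at 53.8, 67.2, 64.7 and 53.4 CPM in peritoneal macrophages. Choroid plexus libraries had 0.961, 0.528, 1.35 and 0.635 CPM. The MHC II-high dura libraries had 15.1, 13.1, 17.6 and 21.6 CPM and the MHC II-low ones 4.58, 6.75, 2.75 and 5.61 CPM, and microglia had 0.313, 0.988, 0.116 and 0.264 CPM. The dura populations did not overlap, and S100a6 was higher in MHC II-high than in MHC II-low libraries by 1.77 ± 0.31 (edgeR adjusted p = 0.000652), the largest difference of a member between them. Both dura populations were well above microglia, by 5.31 ± 0.41 for MHC II-high and 3.54 ± 0.41 for MHC II-low, and peritoneal macrophages by 7.14. The size of these differences rested in part on microglia replicate 3, the library with most choroid plexus epithelium marker RNA. Without it the other 3 averaged 0.231 ± 0.103 CPM, against 0.420 ± 0.387 with it, and the differences were 6.11 for MHC II-high, 4.34 for MHC II-low and 7.97 for peritoneal macrophages. Microglia replicates 1, 3, 4 and 5 had only 5, 16, 2 and 4 counts of S100a6. All differences of S100a6 from microglia therefore rest on few counts, the more so without replicate 3. Choroid plexus over microglia was not called (1.04 ± 0.48, adjusted p = 0.0934); without microglia replicate 3, whose S100a6 was the highest of its population, it was called at 1.83 (adjusted p = 0.00726). S100a4 and S100a6 did not shift alike. The log2 ratio of S100a4 to S100a6 counts lay between -0.67 and -0.20 in peritoneal, between -2.55 and -1.34 in MHC II-high dura and between -1.16 and -0.10 in MHC II-low dura libraries. MHC II-high dura thus overlapped neither of these, a difference that was not tested. Where S100a4 had any counts, which were few, the ratio was -1.70, -2.74 and -2.32 in choroid plexus libraries, around the MHC II-high values. In microglia it was -0.74, -4 and -1.

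S100a1 and S100a13 start back to back, as in the short sequence above. S100a1 is best known as a regulator of calcium handling in muscle, and S100a13 for copper-dependent release of growth factors and cytokines that lack a signal peptide. In microglia they had the highest means per length. S100a13 had 57.7, 55.2, 64.1 and 42.8 CPM in peritoneal, 13.6, 13.9, 15 and 14.9 in choroid plexus, 22.1, 28.7, 25.4 and 27.6 in MHC II-high dura, 17.2, 17.2, 18.7 and 17.6 in MHC II-low dura libraries and 7.27, 6.73, 6.83 and 6.61 in microglia. No 2 populations overlapped. Its differences were the smallest of the members called in peritoneal macrophages over microglia, at 3.0 ± 0.12 (edgeR adjusted p = 2.88e-14), and it was called in 7 of 10 comparisons. It passed the adjusted p in MHC II-high over MHC II-low dura (0.55 ± 0.11, adjusted p = 0.00292) and in choroid plexus over MHC II-high dura (-0.86 ± 0.12, adjusted p = 3.53e-05) without reaching 2-fold.

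S100a1 had 111, 87.7, 127 and 82.6 CPM in peritoneal and 21.7, 20.2, 21.4 and 22.5 CPM in choroid plexus libraries. Dura macrophages had 27.9, 32.9, 43.0 and 32.9 CPM in MHC II-high and 30.9, 34.4, 36.6 and 26.9 CPM in MHC II-low libraries, which overlapped throughout (0.08 ± 0.42, edgeR adjusted p = 0.938). Microglia replicates 1, 4 and 5 had 3.45, 4.28 and 4.10 CPM, and replicate 3 had 24.5 CPM, just above the choroid plexus libraries. Replicate 3 is the library with 21272 CPM of choroid plexus epithelium markers; its S100a13, at 6.73 CPM, was like that of the other microglia libraries. Without it the other 3 averaged 3.94 ± 0.439 CPM of S100a1, against 9.08 ± 10.3 with it. The choroid plexus libraries had 4141 to 7812 CPM of the same markers at 20.2 to 22.5 CPM of S100a1, and the peritoneal libraries at most 0.448 CPM at 82.6 to 127 CPM. The part of epithelial RNA in the S100a1 level was not tested.

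The microglia library set the size of every S100a1 difference from microglia. Peritoneal macrophages were higher by 3.49 ± 0.47 (edgeR adjusted p = 4.23e-06), and by 4.66 without microglia replicate 3. MHC II-high dura was higher by 1.91 ± 0.45 and MHC II-low dura by 1.82 ± 0.45, or by 3.05 and 2.96 without it. Choroid plexus was higher by 1.24 ± 0.45 (adjusted p = 0.0354), or by 2.37 without it (adjusted p = 2.40e-09). The S100a1 call in choroid plexus over microglia was lost when any single choroid plexus library, or microglia replicate 1, 4 or 5, was left out.

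**Figure D3:**
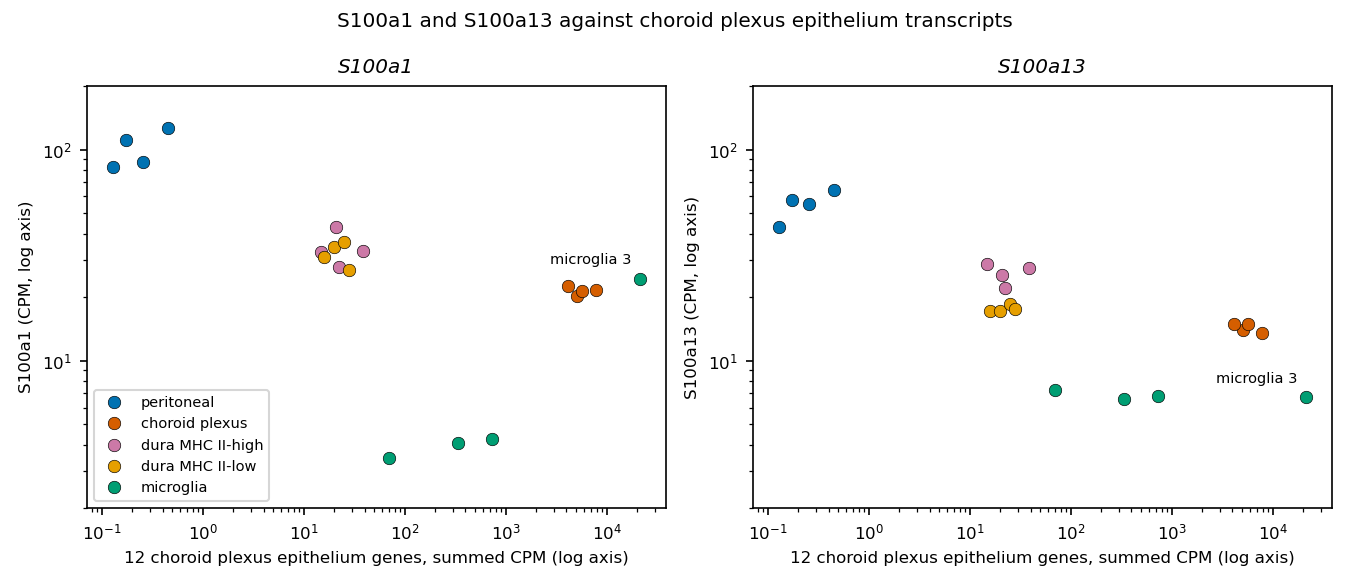
CPM of S100a1 and S100a13 (y axes, logarithmic) against the summed CPM of 12 choroid plexus epithelium genes (x axis, logarithmic) in the 20 libraries, coloured by population. Microglia replicate 3 stands at 21272 CPM of these genes with 24.5 CPM of S100a1 and 6.73 CPM of S100a13, while the other 3 microglia libraries stand at 70.3 to 736 CPM.

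The calprotectin genes S100a8 and S100a9 were almost absent. S100a8 had 51, 49, 49 and 35 counts in the peritoneal libraries (1.68 ± 0.129 CPM), 0 counts in choroid plexus, 3 in MHC II-high dura, 8 in MHC II-low dura and 4 in microglia, summed over 4 libraries each. All 4 peritoneal libraries lay above all others. The peritoneal level was at least 33.4-fold higher than in choroid plexus, taking 3 counts over the group as the limit, and 57.3 times that in MHC II-high dura, with a 95% counting interval of 19.3 to 280.2 that covers counting error only. S100a8 passed the low-count filter through its peritoneal counts alone, so its calls there (edgeR adjusted p = 0.000894 to 0.00582) were bound to be differences. S100a9 had 0 counts in every peritoneal, choroid plexus and microglia library. MHC II-high dura had 10 counts, 5 each in replicates 2 and 3, and MHC II-low dura 18 counts, all in replicate 4, which also held 7 of the 8 S100a8 counts of its population. S100a8 was thus counted in peritoneal macrophages without a single S100a9 count, where 3 counts over the group would be 0.0276 CPM. Of 14 neutrophil marker genes in the files, Ltf, Ngp, Retnlg, Mpo, Fcnb and Stfa2l1 were at 0 in the peritoneal libraries. The 14 summed to 16.4 to 35.0 CPM in peritoneal, 1.18 to 1.71 in choroid plexus, 104 to 243 in MHC II-high dura, 177 to 412 in MHC II-low dura libraries and 1.36 to 2.25 in microglia. Nearly all of the dura sum was Mmp9, at a mean of 157 CPM in MHC II-high and 297 in MHC II-low macrophages. Of the 4 neutrophil markers tested, 3 were called higher in peritoneal macrophages than in microglia and in choroid plexus, the iron-binding lipocalin gene Lcn2, the granulocyte transcription factor gene Cebpe and the gelatinase gene Mmp9. For comparison, 18.9% of all genes tested were called higher and 25.7% lower in peritoneal macrophages than in microglia. Against choroid plexus these shares were 12.6% and 24.1%. Over both dura populations Lcn2 and Cebpe were called higher and Mmp9 lower. Lcn2 averaged 4.63 ± 1.11 CPM and Cebpe 1.19 ± 0.364 CPM in peritoneal libraries. In the other populations their means were at most 0.273 and 0.0671 CPM. The peritoneal libraries sufficed to pass Lcn2 and Cebpe through the low-count filter. Their calls in peritoneal macrophages are therefore at least in part a result of that selection. The part of neutrophil RNA in the S100a8 and S100a9 counts was not tested.

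Leaving S100a8 aside, 6 members were tested in each comparison. All 6 were called higher in peritoneal macrophages than in microglia, where 18.9% of all genes tested were called higher and 25.7% lower. The same held over choroid plexus (12.6% of all genes higher, 24.1% lower), MHC II-high dura (9.18% higher, 20.1% lower) and MHC II-low dura (11.9% higher, 20% lower). All 6 were also called higher in MHC II-high dura over microglia (15.7% higher, 12.2% lower) and in MHC II-low dura over microglia (13.8% higher, 12.7% lower). In choroid plexus over microglia 4 were called higher, S100a1, S100a10, S100a11 and S100a13 (12.1% of all genes higher, 7.11% lower). S100a4, S100a6 and S100a10 were called lower in choroid plexus than in MHC II-high dura, where 4.00% of all genes were lower and 5.87% higher. The same 3 were lower than in MHC II-low dura, where 4.18% of all genes were lower and 8.63% higher. Between the dura populations 2 were called higher in MHC II-high, S100a6 and S100a11 (2.39% of all genes), and 0 lower (1.48%). These comparisons share libraries, so they are not separate evidence of one another.

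**Figure D4:**
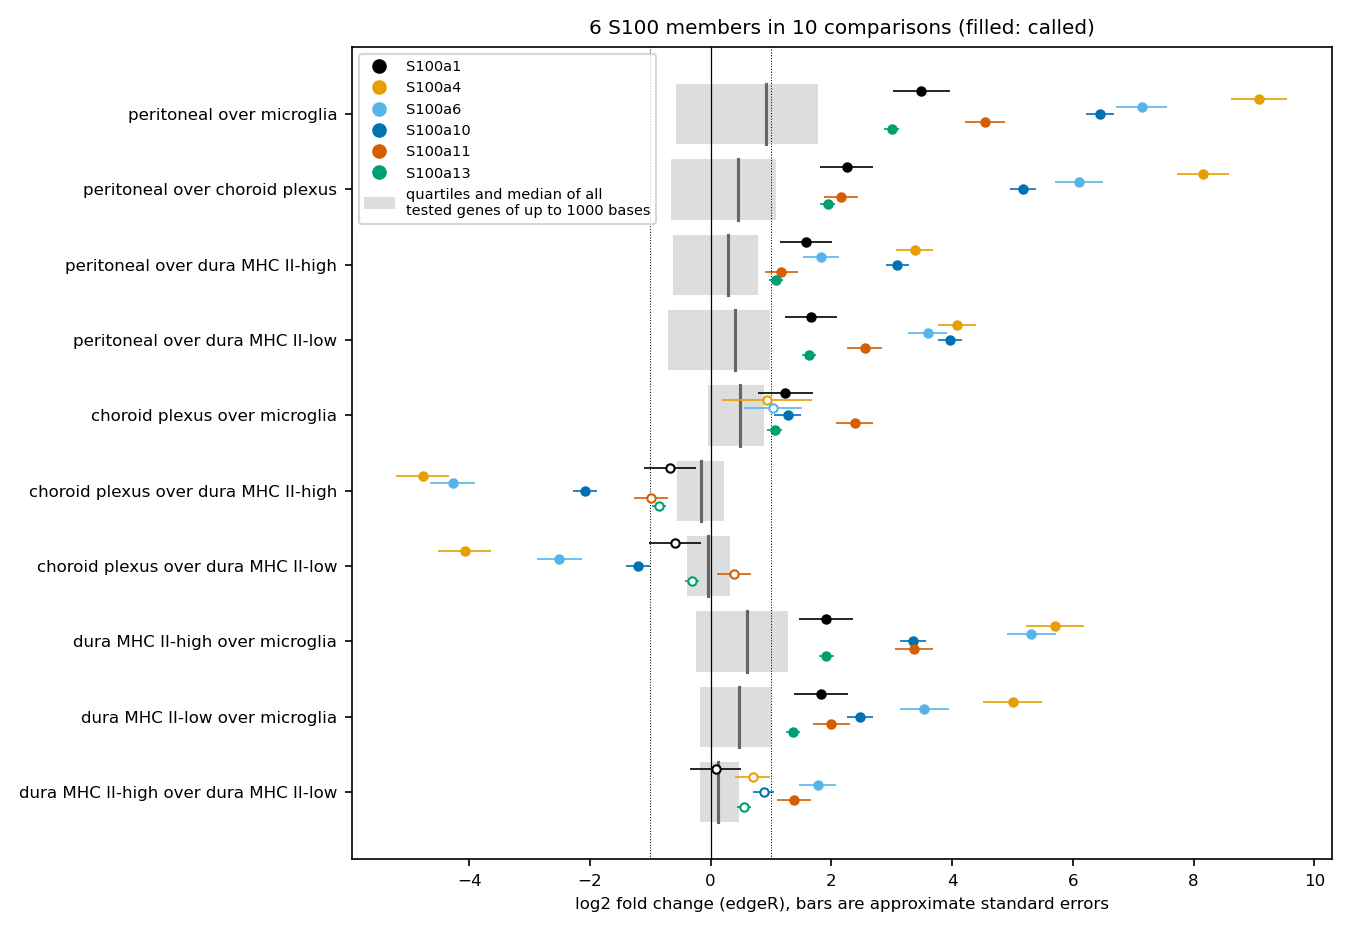
Log2 fold changes (x axis, edgeR) of 6 S100 genes in the 10 comparisons (y axis), with approximate standard errors as bars and filled points where called; grey boxes span the quartiles of all 562 tested genes of up to 1000 bases, with their median as a line. Dotted lines mark 2-fold; the members lie right of the boxes in all comparisons of peritoneal macrophages, and S100a4 and S100a6 lie furthest left in choroid plexus against dura. S100a8 is left out because its counts outside peritoneal libraries were 0 to 8 per population.

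The median of short transcripts also differed between populations. The 562 tested genes with a longest transcript of up to 1000 bases had a median log2 difference of 0.91 in peritoneal macrophages over microglia, against -0.11 for all genes, and 42.5% of them were called higher and 17.6% lower. Their median was 0.46 over choroid plexus, 0.29 over MHC II-high dura and 0.40 over MHC II-low dura; over MHC II-high dura 12.3% of them were called higher and 15.3% lower. It was 0.48 in choroid plexus, 0.61 in MHC II-high dura and 0.47 in MHC II-low dura over microglia. Libraries of one population also differed in the median log2 deviation of these genes from their means over the 20 libraries. This was -0.20 in microglia replicate 3, against -0.67 to -0.45 in the other microglia libraries, and 0.14 to 0.71 in peritoneal libraries. The part of this shift in the S100 levels of microglia replicate 3 was not tested. With the trend on length removed in each library, an alternative added after the data were seen, S100a10 in peritoneal macrophages over microglia was 5.46 in place of 6.44 and S100a4 7.93 in place of 9.09. S100a13 then fell short of 2-fold in peritoneal macrophages over MHC II-high dura (0.90) and in MHC II-low dura over microglia (0.77). In choroid plexus over microglia S100a11 alone was still called (1.78), S100a1 being at 0.82, S100a10 at 0.73 and S100a13 at 0.53. Calls of S100a4, S100a6 and S100a10 in choroid plexus over dura, and of S100a6 and S100a11 between the dura populations, were the same with and without the trend.

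Of 9 other S100 family genes in the files 2 were tested, S100a16 and S100b, and neither was highest in peritoneal macrophages. S100a16, a widely expressed member, had 0 counts in all 4 peritoneal libraries. It averaged 5.75 ± 1.13 CPM in choroid plexus, 3.93 ± 1.29 in MHC II-high dura, 2.06 ± 0.332 in MHC II-low dura libraries and 2.56 ± 1.80 in microglia. It was at least 209.3-fold lower in peritoneal macrophages than in choroid plexus and at least 74.1-fold lower than in MHC II-low dura, with 3 counts over the group as the limit. The glial marker S100b averaged 0.0273 ± 0.0547 CPM in peritoneal, 0.530 ± 0.285 in choroid plexus, 4.14 ± 1.15 in MHC II-high dura, 3.08 ± 0.434 in MHC II-low dura libraries and 0.372 ± 0.349 in microglia. It was called higher in both dura populations than in microglia (3.46 ± 0.71 for MHC II-high, 3.03 ± 0.70 for MHC II-low). The dura libraries sufficed to pass S100b through the low-count filter, so these calls are in part a result of that selection. S100pbp, which is no family member but encodes a protein that binds one, was tested and called in none of the 10 comparisons.

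As lists, receptors and partners of secreted or cytosolic S100 proteins had no common direction. Single genes did differ the same way in peritoneal macrophages from every other population, among them Alcam and Cd33, given below, and Ahnak, given above. The receptor for advanced glycation end products, Ager, averaged 0.0255 to 0.140 CPM in every population, and Tlr4, which binds calprotectin, averaged 151 ± 22.9 CPM in peritoneal macrophages, 238 ± 31.3 in choroid plexus, 272 ± 25.4 in MHC II-high dura, 290 ± 55.6 in MHC II-low dura and 151 ± 37.2 in microglia. The scavenger receptor Cd36 was at 878 ± 174 CPM in peritoneal macrophages and 1.18 ± 0.815 CPM in microglia (9.55 ± 0.34, edgeR adjusted p = 6.49e-15). Basigin, Bsg, was lower in both dura populations than in microglia (-1.28 ± 0.21 for MHC II-high, -1.23 ± 0.21 for MHC II-low). It averaged 760 ± 382 CPM in microglia, a wide spread, against 313 ± 33.7 in MHC II-high and 325 ± 23.2 in MHC II-low dura. How far a single microglia library set these Bsg differences was not examined. Alcam averaged 128 ± 28.8 CPM in peritoneal macrophages and was called higher there than in each other population. Its means were 30.3 in MHC II-high dura, 9.30 in MHC II-low dura, 8.10 in choroid plexus and 0.499 in microglia. Cd33 averaged 78.2 ± 17.9 CPM in peritoneal macrophages and was called lower there than in each other population, at means of 171 to 308. Of 6 receptor genes tested, 2 were called higher and 1 lower in peritoneal macrophages over microglia, with a median of 0.10. Of 5 partner genes, all tested, 2 were called higher, Ahnak and Cacybp, and 1 lower, Dysf, with a median of 0.27. Of all genes tested 18.9% were called higher and 25.7% lower there.

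Genes of the cytoskeleton and of motile myeloid cells moved like the members in some comparisons and less so in others. This list was chosen with earlier results of these data known, so its likeness to the members is no separate evidence. Its gene Lgals3 is also among the 3 genes closest to S100a6, as given below. Of 13 such genes, all tested, 10 were called higher and 1, the actin regulator Coro1a, lower in peritoneal macrophages over microglia (median 4.26, against -0.11 for all genes). Of all genes tested 18.9% were called higher and 25.7% lower there. In MHC II-high over MHC II-low dura 6 of 13 were called higher (2.39% of all genes) and 0 lower (1.48%), with a median of 0.74 against 0.02. Among them were the galactose-binding lectin Lgals3 (1.93 ± 0.22), the intermediate filament gene Vim (1.39 ± 0.13) and the LIM protein gene Crip1 (1.29 ± 0.24). In choroid plexus over MHC II-high dura 5 were called lower (4.00% of all genes) and 0 higher (5.87%), with a median of -0.74. Of 12 monocyte marker genes, 8 were called higher and 2 lower in peritoneal macrophages over microglia, with a median of 4.06. In MHC II-high over MHC II-low dura 1 was called higher (Ccr2) and 2 lower (Chil3, Hp), with a median of -1.01.

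Across the 20 libraries the 6 members other than S100a8 and S100a9 had Pearson correlations of log2 CPM with one another of 0.82 to 0.97, the highest between S100a10 and S100a13. These values mostly restate the 5 population means: with each population's mean removed they ran from -0.0021 to 0.63. S100a8, near 0 outside peritoneal libraries, is left out here. Among tested genes of at least 20 CPM in their highest population, the 3 with the highest correlation to each member over the 20 libraries were as follows. S100a10 was closest to Psma7, Gda and Nme2, S100a11 to Rpl36, Rpl28 and Shfm1, and S100a4 to Cd300lb, Gda and Ms4a8a. S100a6 was closest to Nedd9, Cd300lb and Lgals3, S100a1 to Uqcr10, Atp5l and Atp5h, and S100a13 to Nsf, Sec61g and Cast. The correlations ran from 0.96 to 0.99 over libraries that share their population. Over the 5 population means instead, none of the same 3 genes was named for any of the 6 members.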

How the data were processed

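Bulk RNA-seq counts per gene symbol were deposited for 20 libraries of 5 mouse macrophage populations. Per the submitters' processing notes the authors used TopHat2 2.1.0, SAMtools 0.1.18, Trimmomatic 0.38 and FastQC 0.11.4 with the mm10 build; how reads were assigned to genes, by which annotation and strand, was not given in the sources used here. Raw counts are the deposited unit. The 5 lines of unassigned reads were left out; of all counted lines 5.67% to 13.1% had no feature and 0.836% to 1.51% were ambiguous. Samples of another series that the design text names were not used here.

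Counts were scaled by TMM (factors 0.923 to 1.05), filtered with filterByExpr (13960 genes kept) and fitted over all 5 populations with edgeR 4.0.16 in R 4.3.3 (robust quasi-likelihood test, 15 residual degrees of freedom). P-values were adjusted by Benjamini-Hochberg over all genes tested. Standard errors of log2 fold changes are approximate. Ratios of single genes were compared by two-sided exact permutation over libraries. The step was tested on simulated counts. Positions and lengths came from GENCODE M21, and sequences from RefSeq.

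Alternatives were RLE and upper-quartile scaling, DESeq2 1.42.0, no filter or one of 10 CPM in 4 libraries, only the 2 populations compared, thinning to equal depth, a replicate block, each library left out, and the adjusted p alone. Genes were named by rule: all members, genes of the listed partners, receptors and relatives that were called or best expressed, and the 3 genes most like each member. The ratio pairs other than S100a4 to S100a6 were chosen after values were seen. The members and lists were chosen with earlier results of these data known.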

Additional observations from a re-analysis of the deposited data

Results flagged for a closer look

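S100a1 in microglia replicate 3, at 24.5 CPM, lay far from the other 3 microglia libraries, at 3.45 to 4.28 CPM. S100a9 in MHC II-low dura replicate 4, at 0.635 CPM from 18 counts, lay apart from the other 3 libraries of its population, all at 0. These 2 were found among 30 sets of 4 libraries looked at in this way. Chance gives about 1 in 20 of such sets, so a count of 2 is near what chance alone gives.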

How the results depend on the processing

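Under the alternatives, 2039 of 2082 log2 differences of the 7 tested members kept their direction and their side of the thresholds, and 592 of 600 counts of members called stayed within 1.5 times. In choroid plexus over microglia 4 members were called higher, but 2 when only the 2 populations were fitted, 1 with the length trend removed, and 2 to 4 when a library was left out; S100a13 lies at 2-fold there (1.06) and S100a1 near the p threshold. By the adjusted p alone, without the 2-fold limit, 5 members in place of 3 were lower in choroid plexus than in MHC II-high dura (13.3% of all genes in place of 4.00%), and 4 in place of 2 higher in MHC II-high than in MHC II-low dura (5.77% in place of 2.39%). S100a1 in MHC II-low dura over microglia lost its call when only those 2 populations were fitted (1.82, adjusted p = 0.0540).

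Directions that turned were all of uncalled differences. S100a8, from a few counts, turned in MHC II-high dura over microglia with the replicate block (0.21) and without microglia replicate 5 (0.45, range -3.62 to 0.45 over libraries left out). It turned in MHC II-low dura over microglia with thinning (-0.94), with the length trend removed (-0.64), without MHC II-low replicate 4 (-2.01), and without microglia replicate 3 (-0.29) or 4 (-0.30), with a range of -2.01 to 1.51. It also turned in MHC II-high over MHC II-low dura with thinning (0.047) and without MHC II-low replicate 4 (1.06, range -3.78 to 1.06). S100a1 in MHC II-high over MHC II-low dura (0.08) turned without MHC II-high replicate 3 (-0.047, range -0.047 to 0.18) and with the length trend removed (-0.12). The causes were not tested.

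Samples shared replicate numbers across populations, but same-numbered libraries did not deviate together: 36 correlations of their deviations over 2000 genes ran from -0.17 to 0.10. With the replicate block S100a11 in choroid plexus over MHC II-high dura passed 2-fold (-1.02 in place of -0.99), as it did without the filter (-1.004) and in the fit of those 2 populations (-1.001), and without choroid plexus replicate 3 (-1.04) or 4 (-1.21) or MHC II-high replicate 1 (-1.13). Upper-quartile scaling moved the median of all genes in MHC II-high dura over microglia by -0.11; mean levels moved by less than 1 SD in 79 of 80 cases. Depth limits S100a8, S100a9, in microglia S100a6 and, outside peritoneal and dura libraries, S100a4.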
